A study of Mus musculus with 20 samples.

Results

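The array measured 59 cytochrome P450 genes of families 1 to 3 in mouse liver, out of 19505 genes with a single symbol. The rule for members goes by name: every symbol that begins with Cyp1, Cyp2 or Cyp3 and goes on with a letter was taken, and 1 pseudogene was left out. This set was chosen with earlier results of these data known. The members fall into 17 subfamilies, of which Cyp2c has 14 members, Cyp3a has 9, Cyp2d has 8, Cyp2j has 7, Cyp2b has 5 and Cyp2a has 4. All 59 symbols matched a RefSeq gene.

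P450s of these families are heme enzymes of the endoplasmic reticulum that oxidise drugs, toxins, steroids, retinoids and fatty acids. In hepatocytes their genes answer to nuclear receptors and related sensors: AHR for the Cyp1 genes, CAR (Nr1i3) for Cyp2b genes, PXR (Nr1i2) for Cyp3a genes, and HNF4A for many of them. Many mouse members are sex-biased in adult liver, since the pattern of growth hormone release differs between the sexes after puberty and acts on the liver through STAT5B. Several, such as Cyp2e1 and Cyp1a2, are most abundant around the central vein of the liver lobule, whereas Cyp2f2 is known from hepatocytes nearer the portal vein.

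Whole-liver RNA came from mice labelled OGTL WT or OGTL KO, aged 4 or 8 weeks, with 5 Clariom S Mouse arrays in each of the 4 groups and 5 mice per group by the series text. OGT is O-GlcNAc transferase, which adds a single sugar to serines and threonines of intracellular proteins, and the design compares livers labelled as lacking it with WT livers at both ages. No treatment is labelled. The sex and strain of the mice and the promoter behind the deletion are not given in the sources used here. Eif2s3y, a gene of the Y chromosome, lay between 11.08 and 12.09 on all 20 arrays, above the background level of 5.01 to 5.20 defined below. A signal of this kind is that of male liver, and other genes of the Y chromosome were not examined. Array numbers in the labels run in group order, so order and group cannot be told apart.

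All values are deposited log2 signals, and group values are means ± SD (n = 5 arrays). A signal above 16 exceeds the log2 ceiling of a 16-bit scanner, and 18 members had a group mean above it, so the fold sizes of the brightest members are those of the deposited scale. Ogt was lower at 4 weeks in KO (7.37 to 8.84 on single arrays) than in WT (9.14 to 9.87), with a difference of -1.43 and an adjusted p of 8.82e-05. At 8 weeks the arrays labelled KO (9.55 to 10.01) and WT (9.84 to 10.33) overlapped (-0.27, adjusted p = 0.529). Statements on 8 weeks therefore concern arrays labelled KO. Skeletal muscle transcripts were high on 3 arrays of 4 weeks: Acta1 was 15.89 on WT replicate 4, 15.04 on KO replicate 4 and 15.43 on KO replicate 5, and 4.24 to 6.11 on the others. The 11 hepatocyte markers measured had array means of 18.79 to 19.10 over all 20 arrays. In whole tissue, fewer cells of a type and less RNA per cell cannot be told apart.

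Promoters of 6 members that carry the main contrasts are shown from RefSeq (GRCm38.p6), as the 250 bases upstream of the start, 5′ to 3′ on the strand of the gene. Cyp2c40 and Cyp2c69 are shown for the largest KO differences at 4 weeks, and Cyp2c68, from the same cluster on chromosome 19, for the likeness of its sequence. Cyp2a22, Cyp2a4 and Cyp2a5, from chromosome 7, are shown as relatives with different values. Capitals mark matches, on either strand, to the motifs searched.
Cyp2c40 chr19:39812815-39813064, minus strand: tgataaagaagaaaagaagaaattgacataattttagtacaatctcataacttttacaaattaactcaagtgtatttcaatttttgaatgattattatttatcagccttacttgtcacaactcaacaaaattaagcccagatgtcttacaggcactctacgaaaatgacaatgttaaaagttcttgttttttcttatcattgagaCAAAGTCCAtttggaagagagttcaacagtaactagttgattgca
Cyp2c69 chr19:39886770-39887019, minus strand: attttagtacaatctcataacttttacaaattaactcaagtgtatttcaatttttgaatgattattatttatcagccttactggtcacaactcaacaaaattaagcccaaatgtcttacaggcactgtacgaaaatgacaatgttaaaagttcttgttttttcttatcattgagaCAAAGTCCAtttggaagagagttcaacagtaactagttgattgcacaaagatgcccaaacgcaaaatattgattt
Cyp2c68 chr19:39741102-39741351, minus strand: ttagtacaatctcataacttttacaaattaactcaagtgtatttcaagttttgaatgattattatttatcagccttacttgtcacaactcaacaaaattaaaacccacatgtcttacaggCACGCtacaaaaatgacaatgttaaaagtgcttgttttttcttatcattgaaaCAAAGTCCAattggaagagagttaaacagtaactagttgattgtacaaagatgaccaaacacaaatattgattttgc
Cyp2a22 chr7:26939387-26939636, minus strand: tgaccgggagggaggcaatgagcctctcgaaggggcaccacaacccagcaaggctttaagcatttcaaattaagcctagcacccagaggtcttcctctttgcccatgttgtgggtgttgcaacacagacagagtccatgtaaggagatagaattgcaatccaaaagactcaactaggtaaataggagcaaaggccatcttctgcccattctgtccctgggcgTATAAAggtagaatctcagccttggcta
Cyp2a4 chr7:26306942-26307191, plus strand: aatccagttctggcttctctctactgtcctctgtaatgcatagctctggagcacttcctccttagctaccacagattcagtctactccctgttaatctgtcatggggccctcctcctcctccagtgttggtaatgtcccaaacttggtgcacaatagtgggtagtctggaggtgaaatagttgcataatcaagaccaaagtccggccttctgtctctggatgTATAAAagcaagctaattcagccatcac
Cyp2a5 chr7:26835089-26835338, plus strand: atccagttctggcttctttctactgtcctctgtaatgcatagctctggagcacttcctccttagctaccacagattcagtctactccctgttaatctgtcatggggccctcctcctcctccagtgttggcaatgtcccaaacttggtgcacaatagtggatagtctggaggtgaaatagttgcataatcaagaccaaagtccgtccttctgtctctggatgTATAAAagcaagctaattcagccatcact

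Aligned over these windows, Cyp2c69 shared 91.3% of positions with Cyp2c68 and 77.5% with Cyp2c40, and Cyp2a4 shared 97.6% with Cyp2a5. Unpaired ends of the windows counted as differences, and the Cyp2c40 and Cyp2c69 windows are shifted against each other. Of their 280 aligned columns 217 were identical, so 77.5% understates the likeness of the stretch that both windows hold. These percentages therefore do not rank Cyp2c68 and Cyp2c40 by likeness to Cyp2c69. The Cyp2c40, Cyp2c68 and Cyp2c69 windows each hold CAAAGTCCA, an HNF4-type element, 45, 77 and 75 bases before the start. The Cyp2a22, Cyp2a4 and Cyp2a5 windows each hold TATAAA, 28, 28 and 29 bases before the start. The capitals further upstream in Cyp2c68 mark GCGTG, the core of the AHR element, on the other strand.

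RefSeq promoters were found for 51 of the 59 members, in 54 windows. CAAAGTCCA stood in 10 of these (18.5%), against 0.384% of 32851 promoters of all genes. The 10 are those of Cyp2c40, Cyp2c65, Cyp2c67, Cyp2c68, Cyp2c69, Cyp2c70, Cyp3a11, Cyp3a16, Cyp3a41a and Cyp3a41b, several of which are close relatives. This motif was added to the search after the sequences had been seen. TATAAA stood in 42.6% of member windows and 12.4% of all promoters, and AGGTCA, a nuclear receptor half-site, in 27.8% and 14%. GCGTG stood in 18.5% and 28.2%, and TTCNNNGAA, the STAT element, in 3.7% (Cyp2j11 and Cyp2j12) and 7.02%. A match describes letters of the window and is not a measured binding site.

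Of the 59 members, 45 had a mean above background in all 4 groups, where background is the 95th percentile of the group means of 1412 olfactory and vomeronasal receptor genes (5.01 to 5.20). Cyp2b9, Cyp2b13 and Cyp2s1 were above it in some groups. The 11 members above it in no group were Cyp1a1, Cyp1b1, Cyp2ab1, Cyp2b19, Cyp2c66, Cyp2j8, Cyp2j11, Cyp2j12, Cyp2j13, Cyp2t4 and Cyp2w1. Cyp1a1 is known as a gene that is low in liver until an AHR ligand arrives.

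**Figure D1:**
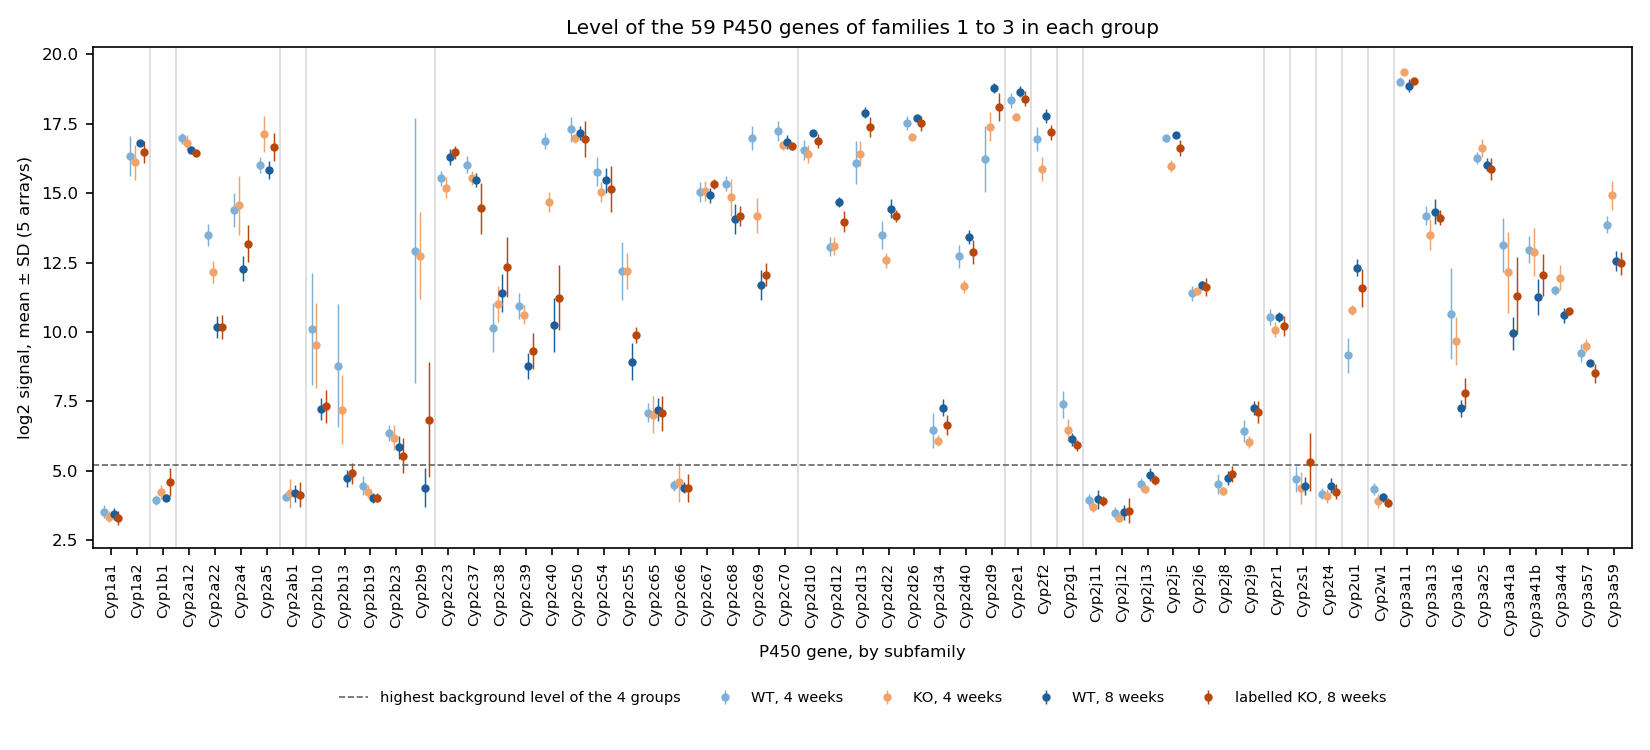
Log2 signal (vertical axis) of each of the 59 members (horizontal axis), as the mean (point) and SD (bar) of 5 arrays in each of the 4 groups. The dashed line is the highest background level of the 4 groups, 5.20, and 11 members lie below background in every group.

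Between 4 and 8 weeks the P450 signals of WT liver moved in both directions. Members known as female-biased in adult mice fell, members known as male-biased rose, and most of the Cyp2d subfamily rose. By limma with Benjamini-Hochberg adjustment over 19505 genes (called at an adjusted p below 0.05), 27 of 59 members were called (45.8%), 11 higher and 16 lower at 8 weeks. Of all genes 8.94% were called, 3.71% higher and 5.23% lower. The median difference was -0.11 over members and 0.04 over all genes. For 7 members every 8-week array lay above every 4-week array and for 14 members below, 21 in all, where 3.7% and 5.38% of all genes did so, 9.08% in all.

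All 10 members of the female-biased list fell, with a median of -3.29, and both members of the male-biased list (Cyp2d9 and Cyp2u1) rose. The lists were written from textbook knowledge with earlier results of these data known, so their direction is not independent evidence. Without the 3 muscle-high arrays 9 of the 10 fell, and Cyp2b10 then had an adjusted p of 0.0501. Outside both lists, 9 of 47 members rose and 6 fell.

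Cyp2b9, a steroid hydroxylase known from female liver, was 14.93, 4.40, 15.37, 14.75 and 15.20 on the WT arrays of 4 weeks and 4.35, 4.37, 3.32, 4.71 and 5.22 on those of 8 weeks. The 4-week arrays were bright apart from replicate 2, which lay with the 8-week arrays. The difference was -8.54 (SE 1.51, adjusted p = 0.000672, 2-sided exact permutation p = 0.0238). Since the 8-week mean was not above background, the fall measured against background was at least 7.73. Without replicate 2 the call held as well (adjusted p = 2.24e-08).

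The same array was the lowest of its group for the other Cyp2b genes of the list. Cyp2b13, whose promoter shares 99.2% of positions with that of Cyp2b9, was 5.09 there and 9.07 to 11.04 on the other 4. It fell by 4.06 (adjusted p = 0.000658), or by at least 3.60 against background. Cyp2b10, the classical target of CAR, was 6.67 there and 10.03 to 11.77 on the others, and fell by 2.86 (adjusted p = 0.0143). For Cyp2c40 (16.98) and Cyp2c69 (16.99) that array lay within the range of its group.

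Cyp2c40, an arachidonic acid hydroxylase, was 16.67, 16.98, 16.49, 17.12 and 17.12 at 4 weeks and 11.86, 10.47, 9.58, 9.53 and 9.79 at 8 weeks. Cyp2c69, which lies beside it, was 16.77, 16.99, 16.45, 17.62 and 17.08 and then 12.44, 12.02, 11.49, 11.09 and 11.35. The ages did not overlap for either gene. Cyp2c40 fell by 6.63 (SE 0.45, adjusted p = 1.77e-09) and Cyp2c69 by 5.30 (SE 0.30, adjusted p = 8.86e-11). Cyp2c68, whose promoter window shares 91.3% of positions with that of Cyp2c69, went from 15.33 ± 0.27 to 14.07 ± 0.55 and fell by 1.26 (adjusted p = 0.00514).

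Cyp2a4, which encodes testosterone 15-alpha-hydroxylase, fell by 2.12, from 14.39 ± 0.61 to 12.27 ± 0.45 (adjusted p = 0.00162). Its close relative Cyp2a5, a coumarin hydroxylase, was 16.01 ± 0.29 and 15.83 ± 0.31 and was not called (-0.18, adjusted p = 0.766). Features of such near-identical genes may take signal from each other, which holds for Cyp2a4 and Cyp2a5, Cyp2b9 and Cyp2b13, Cyp3a41a and Cyp3a41b, Cyp2c40 and its neighbours, and the Cyp2d genes. Cyp2a22 was 13.15, 13.87, 13.82, 13.65 and 13.00 at 4 weeks and 10.26, 10.79, 9.84, 10.23 and 9.81 at 8 weeks. It fell by 3.31 with no overlap (adjusted p = 4.92e-09).

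Of the Cyp3a genes, whose enzymes oxidise steroids and many drugs, 5 of 9 fell and 0 rose. Cyp3a16 fell by 3.41 (adjusted p = 0.000222), with WT replicate 5 of 4 weeks at 7.89 and the other 4 at 10.66 to 11.88. Cyp3a41a fell by 3.18, Cyp3a41b by 1.71, Cyp3a59 by 1.30 and Cyp3a44 by 0.89. Cyp3a11, the main member induced through PXR, was 19.01 ± 0.16 and 18.86 ± 0.23 and was not called. Lower at 8 weeks were also Cyp2c55 (fell by 3.26), the retinoic acid hydroxylase gene Cyp2c39 (fell by 2.16) and Cyp2g1, known from the olfactory epithelium (fell by 1.25).

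Cyp2u1, a fatty acid hydroxylase, was 8.60, 9.76, 8.78, 8.77 and 9.93 at 4 weeks and 11.93, 12.80, 12.24, 12.30 and 12.34 at 8 weeks. Every 8-week array was above every 4-week array, and the rise was 3.15 (SE 0.29, adjusted p = 1.79e-07). Cyp2d9, the male-biased testosterone 16-alpha-hydroxylase, was 15.17, 17.10, 16.17, 15.03 and 17.75 and then 18.49, 18.83, 18.96, 18.90 and 18.78. It rose by 2.55 with no overlap (adjusted p = 0.000175), and its arrays were more spread at 4 weeks than at 8.

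In the Cyp2d subfamily, relatives of the human debrisoquine hydroxylase, 7 of 8 rose and 0 fell. Besides Cyp2d9 these were Cyp2d13 (1.80), Cyp2d12 (1.61), Cyp2d22 (0.94), Cyp2d34 (0.82), Cyp2d40 (0.70) and Cyp2d10 (0.58). Without the muscle-high arrays 5 of 8 rose, and Cyp2d10 and Cyp2d40 had adjusted p of 0.0986 and 0.106. Single WT arrays, when left out, ended the call of Cyp2d10 (7 arrays, adjusted p 0.0524 to 0.116), Cyp2d40 (7, 0.0534 to 0.102) and Cyp2d34 (5, 0.0523 to 0.114). Cyp2c23 (0.75), an arachidonic acid epoxygenase gene, Cyp2j9 (0.81) and Cyp2f2 (0.82), whose enzyme activates naphthalene, completed the 11 that rose. The call of Cyp2f2 ended without WT replicate 1 or 4 of 4 weeks or WT replicate 3 of 8 weeks (adjusted p 0.0565 to 0.0625).

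With all signals above 16 set to 16, the calls of Cyp2d9, Cyp2d13, Cyp2d10, Cyp2f2 and Cyp2c23 ended. Markers of other cells moved with age too. Of the endothelial markers 5 of 7 fell (array means 9.63 to 10.25 at 4 weeks and 8.19 to 9.18 at 8 weeks, with all 7 above background at both ages). Of the stellate cell and fibroblast markers 4 of 10 fell (8.88 to 10.83 and 7.65 to 8.55). Of the hepatocyte markers 1 of 11 fell (18.97 to 19.10 and 18.92 to 18.98). Their part in the P450 results was not tested.

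**Figure D2:**
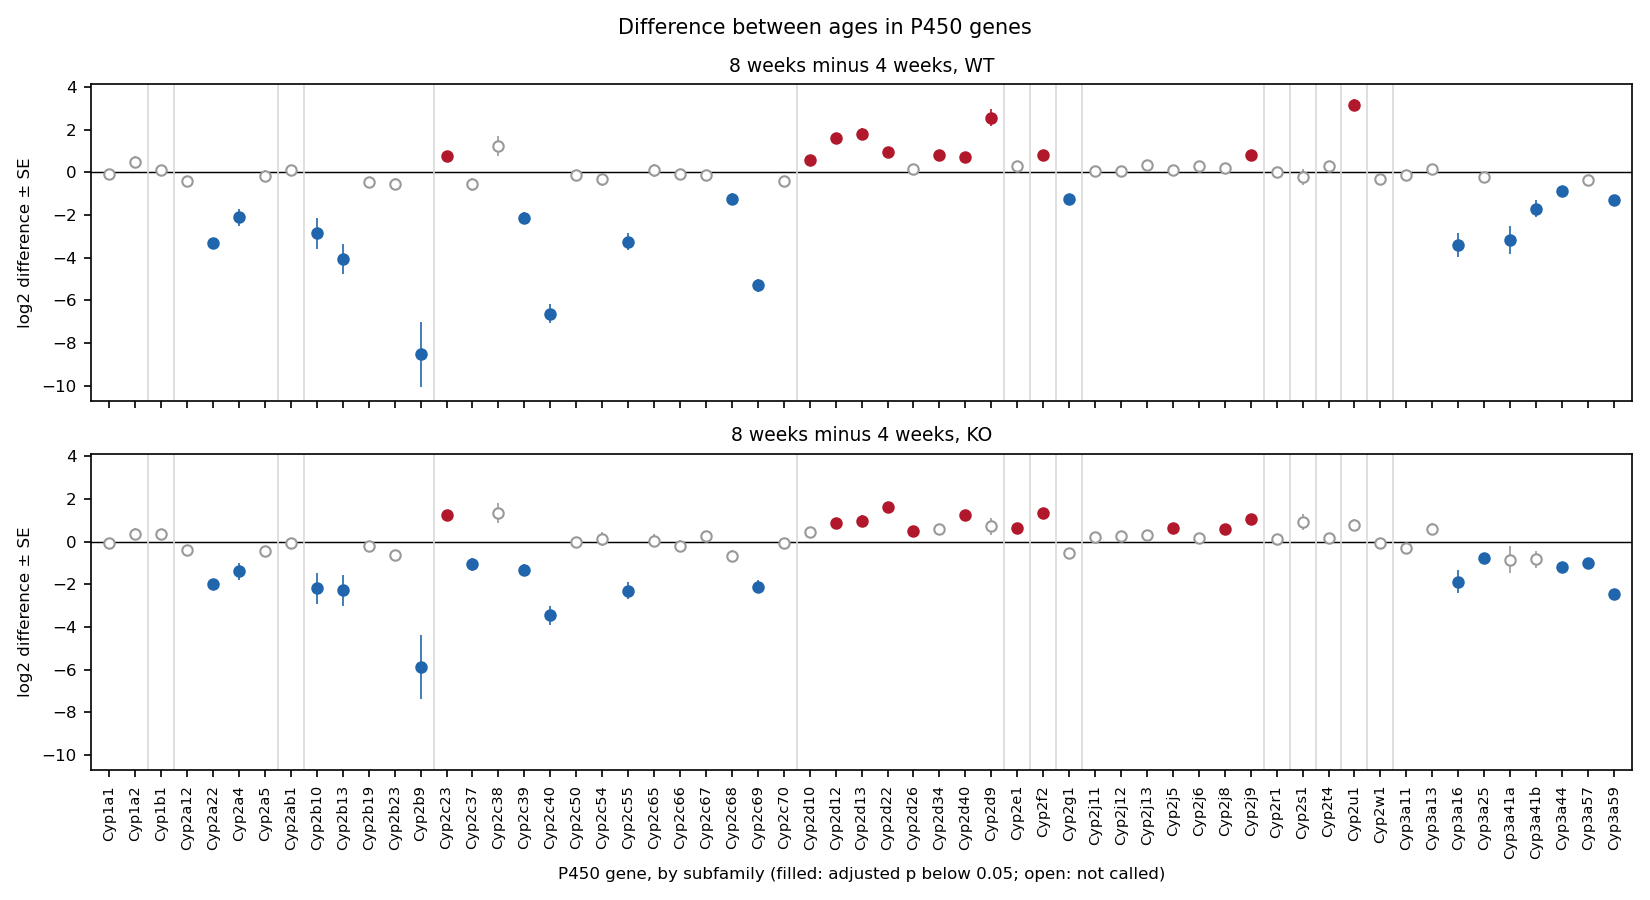
Log2 difference between 8 and 4 weeks (vertical axis, bars are SE from limma) for each member (horizontal axis), in WT and in arrays labelled KO on the same scale. Filled points passed an adjusted p of 0.05, and 11 are higher and 16 lower in WT, 11 and 15 in KO.

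In the arrays labelled KO, members of the Cyp2b, Cyp2c and Cyp3a subfamilies fell with age, and members of Cyp2d and Cyp2j and Cyp2f2 rose. Ogt was 7.37 to 8.84 on the KO arrays of 4 weeks and 9.55 to 10.01 on those of 8 weeks. Age and Ogt level therefore cannot be told apart in this comparison. Of 59 members 26 were called (44.1%), 11 higher and 15 lower at 8 weeks, where 14.6% of all genes were called (7.85% higher and 6.78% lower). The median difference was -0.02 over members and 0.02 over all genes. Groups did not overlap for 7 higher and 13 lower members, 20 in all, against 4.79% and 4.69% of all genes, 9.47% in all. The comparison shares no array with that in WT. In both, 12 members fell (75.0% of the 16 in WT and 80.0% of the 15 in KO) and 7 rose (63.6% of the 11 in each). The same shares over all genes were not computed, so the overlap is not known to be particular to P450s. Without the muscle-high arrays 9 rose and 14 fell.

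Of the female-biased list 8 of 10 fell in KO (7 without the muscle-high arrays), with a median of -1.99. By limma 0 of the 2 male-biased members were called, and 1 had an unadjusted p below 0.05. Cyp2b9 was 14.52, 10.42, 13.77, 12.28 and 12.75 on the KO arrays of 4 weeks and 5.73, 9.01, 5.60, 9.14 and 4.79 at 8 weeks. It fell by 5.89 (adjusted p = 0.0105) with no overlap, although replicates 2 and 4 of 8 weeks stayed above 9. Cyp2c40 fell by 3.46 (adjusted p = 1.75e-05), Cyp2c69 by 2.11 (4.13e-05) and Cyp2a22 by 1.98 (7.66e-06). The groups of these 3 genes did not overlap either.

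Cyp3a41a (-0.85, adjusted p = 0.448) and Cyp3a41b (-0.82, adjusted p = 0.197) were not called in KO. Of the Cyp3a genes 5 of 9 fell: Cyp3a59 by 2.45 (adjusted p = 6.78e-07), Cyp3a16 by 1.87, Cyp3a44 by 1.21, Cyp3a57 by 1.01 and Cyp3a25 by 0.77. Cyp2c37, an arachidonic acid hydroxylase gene, fell by 1.07 (adjusted p = 0.0176). Single arrays, when left out, ended the calls of Cyp2b10 (14 arrays, adjusted p 0.0537 to 0.143), Cyp2b13 (6 arrays, adjusted p 0.0538 to 0.103), Cyp2d13 (6 arrays, adjusted p 0.0543 to 0.0635), Cyp2a4 (5 arrays, adjusted p 0.0505 to 0.0779), Cyp3a16 (2 arrays, adjusted p 0.0622 to 0.0737) and Cyp2j8 (2, 0.0586 to 0.0678). Without KO replicate 4 of 8 weeks Cyp2d26 had an adjusted p of 0.0568.

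Among the rises, Cyp2d22 gained 1.60 (12.58 ± 0.28 to 14.18 ± 0.22), Cyp2f2 1.32, Cyp2c23 1.27, Cyp2d40 1.23 and Cyp2j9 1.08. Cyp2e1, which oxidises ethanol and paracetamol, rose by 0.65 (adjusted p = 0.00441), and Cyp2j5, an arachidonic acid epoxygenase gene, by 0.65 (adjusted p = 0.00258). Cyp2j8 was called higher but was not above background at either age. Cyp2u1 (0.79, adjusted p = 0.0709) and Cyp2d9 (0.71, adjusted p = 0.275) were not called. With signals above 16 set to 16, the calls of Cyp2d13, Cyp2d26, Cyp2e1, Cyp2f2, Cyp2j5 and Cyp3a25 ended. Those of Cyp2b10 (-2.19, adjusted p = 0.0706) and Cyp2b13 (adjusted p = 0.0537) ended there too, although no array of theirs reached 16 and their differences were the same. Of the cholangiocyte markers 6 of 7 rose with age in KO (array means 6.70 to 7.67 and 7.87 to 10.35, all 7 above background), 5 of them without the muscle-high arrays. Of the genes known from hepatocytes around the central vein 4 of 8 rose (10.85 to 11.13 and 11.38 to 11.74), and of the macrophage markers 3 of 10 rose and 4 fell (8.51 to 9.06 and 7.96 to 8.85). Of the hepatocyte markers 1 of 11 rose, of the stellate cell and fibroblast markers 2 of 10 rose and 1 fell, and of the endothelial markers 1 of 7 fell. Their part in the result was not tested.

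At 4 weeks, when Ogt was lower in KO, most called P450s were lower in KO: Cyp2c69, Cyp2c40, Cyp2a22, Cyp2f2, Cyp2d40, Cyp2j5, Cyp2e1 and others. Cyp2u1, Cyp2a5 and Cyp3a59 were higher. Of 59 members 15 were called (25.4%), 3 higher and 12 lower, where 10.2% of all genes were called (4.7% higher and 5.48% lower). The median difference was -0.21 over members and 0.00 over all genes. Groups did not overlap for 4 members higher and 8 lower in KO, 12 in all, against 4.06% and 4.49% of all genes, 8.55% in all. With array medians set equal, the split of all genes moved from 917 higher and 1068 lower to 716 and 1349, and that of the members stayed at 3 and 12. Without the muscle-high arrays 4 members were higher and 9 lower.

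Cyp2c69 was 16.77, 16.99, 16.45, 17.62 and 17.08 in WT and 14.91, 13.85, 13.33, 14.66 and 14.18 in KO. Cyp2c40 was 16.67, 16.98, 16.49, 17.12 and 17.12 in WT and 14.98, 14.53, 14.12, 14.84 and 14.96 in KO. Every KO array lay below every WT array for both genes. The difference was -2.80 for Cyp2c69 (SE 0.30, adjusted p = 3.25e-06) and -2.19 for Cyp2c40 (SE 0.45, adjusted p = 0.00255). With signals above 16 set to 16 that of Cyp2c40 was -1.31 (adjusted p = 0.0873). Cyp2c68, beside them, was 15.33 ± 0.27 and 14.85 ± 0.66 and was not called (-0.49, adjusted p = 0.33). Cyp2c70, which makes muricholic acids, was lower by 0.53 (adjusted p = 0.0382), a call that ended without any 1 of 7 arrays (0.0565 to 0.117).

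Cyp2a22 was 12.67, 12.16, 11.67, 12.38 and 11.92 in KO, below every WT array of the same age, with a difference of -1.34 (adjusted p = 0.000838). Cyp2a5 was 15.95, 16.27, 16.34, 15.65 and 15.82 in WT and 17.37, 17.25, 16.56, 17.99 and 16.43 in KO, where it was higher by 1.11 (adjusted p = 0.00849) with no overlap. Cyp2a4, with nearly the same promoter, was 14.39 ± 0.61 and 14.57 ± 1.06 and was not called (0.19, adjusted p = 0.857). Cyp2u1 was 8.60, 9.76, 8.78, 8.77 and 9.93 in WT and 10.56, 10.93, 10.94, 10.93 and 10.64 in KO. All KO arrays were above all WT arrays, by 1.63 on average (adjusted p = 0.000775). Cyp3a59 was higher by 1.06 (adjusted p = 0.00631).

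Of the epoxygenase gene Cyp2j5 the WT arrays read 16.97, 17.05, 16.85, 16.83 and 17.17 and the KO arrays 15.99, 15.90, 15.83, 15.79 and 16.35. Its geometric mean signal was 2.0-fold lower in KO (adjusted p = 5.92e-05) with no overlap. Cyp2f2 was lower by 1.08, Cyp2d40 by 1.07, Cyp2g1 by 0.93, Cyp2d22 by 0.91, Cyp2e1 by 0.60 and Cyp2d26 by 0.50. The call of Cyp2d26 ended without WT replicate 2 or 3 (adjusted p 0.0523 to 0.0735). Cyp2w1 was called lower (adjusted p = 0.0498) but was not above background. Cyp3a11 was 19.27, 18.91, 18.86, 19.05 and 18.95 in WT and 19.40, 19.32, 19.48, 19.34 and 19.28 in KO. Its groups did not overlap, and its adjusted p was 0.0605 (0.36). With signals above 16 set to 16 the calls of Cyp2a5, Cyp2c40, Cyp2c70, Cyp2d26, Cyp2e1, Cyp2f2 and Cyp2j5 ended.

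Leaving out single arrays added some members to the list. Without WT replicate 2, the array low in Cyp2b genes, Cyp2b13 was lower in KO (-2.52, adjusted p = 0.00205) and Cyp2d9 was higher (1.36, adjusted p = 0.0462). With all arrays they were not called (Cyp2b13 -1.59, adjusted p = 0.187; Cyp2d9 1.14, adjusted p = 0.0739). Without WT replicate 5, Cyp3a16 was lower (-1.66, adjusted p = 0.00646) and Cyp2d9 higher (1.52, adjusted p = 0.00932). Cyp3a11 was higher without WT replicate 1 (0.42, adjusted p = 0.0316) or WT replicate 1 of 8 weeks (0.36, adjusted p = 0.0413). Cyp3a13 was lower without KO replicate 3 (-0.83, adjusted p = 0.0383) or 5 (-0.83, adjusted p = 0.0372), and Cyp3a44 was higher without KO replicate 5 (0.59, adjusted p = 0.0316). Without the muscle-high arrays Cyp3a44 was higher (0.78, adjusted p = 0.0127), and Cyp2c70, Cyp2d26 and Cyp2w1 were not called (0.0785, 0.0515 and 0.158). Of the female-biased list 2 of 10 members were lower in KO and 0 higher (median -0.78), and of the other 47 members 10 were lower and 2 higher, leaving 1 of the 2 male-biased members higher.

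At 4 weeks 3 of 10 macrophage markers were higher in KO (array means 8.51 to 9.06 against 7.83 to 8.61 in WT), 2 of them without the muscle-high arrays. Of the T and NK cell markers 2 of 7 were higher (1 without those arrays), with 4 of the 7 above background in some group. Of the cholangiocyte markers 1 of 7 was higher, and of the endothelial markers 1 of 7 was lower. Stellate cell and fibroblast markers had 0 of 10 called by limma, with 1 higher at an unadjusted p below 0.05. Hepatocyte markers had 0 of 11 called by limma (4 had an unadjusted p below 0.05, all lower), with array means of 18.79 to 18.94 in KO and 18.97 to 19.10 in WT, which did not overlap. Of the genes known from hepatocytes around the central vein 2 of 8 were lower: Rgn (-0.84, adjusted p = 0.000348) and Slc1a2 (-1.01, 0.0486). Of the periportal genes 1 of 7 was higher, Hsd17b13 (0.97, 0.00238). At an unadjusted p below 0.05 by limma, 1 periportal gene was higher and 3 were lower (list median -0.05). At that threshold 4 of the 8 genes from around the central vein were lower and 0 higher (list median -0.41). Their part in the P450 result was not tested.

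**Figure D3:**
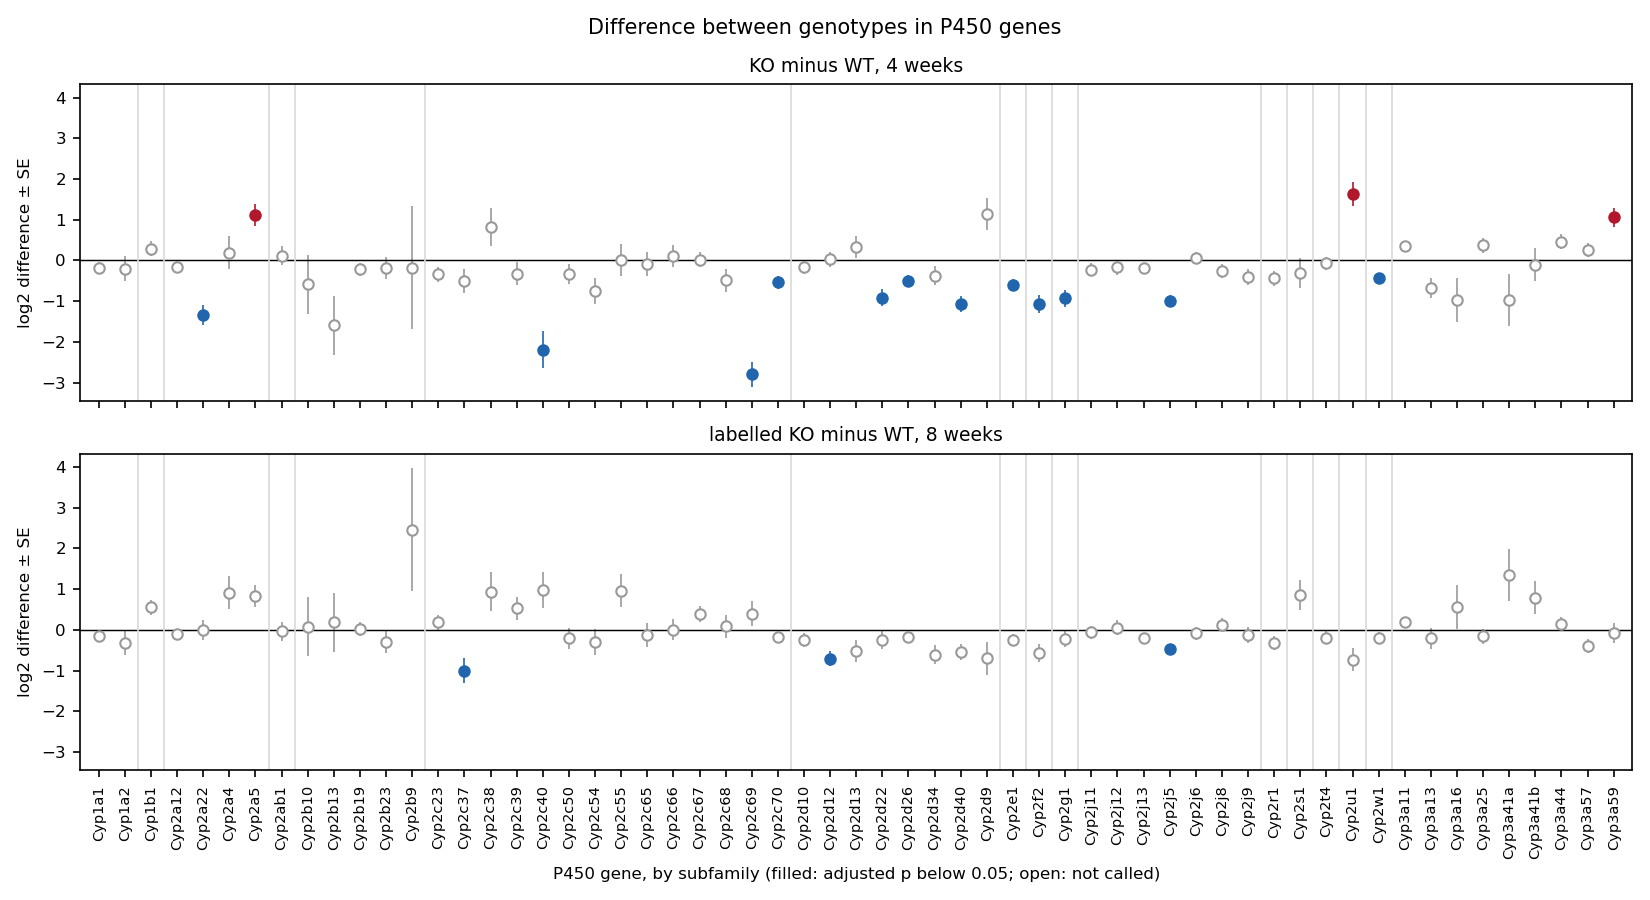
Log2 difference between KO and WT (vertical axis, bars are SE from limma) for each member (horizontal axis), at 4 weeks and at 8 weeks on the same scale. Filled points passed an adjusted p of 0.05, and 3 are higher and 12 lower at 4 weeks, 0 and 3 at 8 weeks.

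At 8 weeks the arrays labelled KO, in which Ogt was not called lower, differed from WT in few P450s. Cyp2c37, Cyp2d12 and Cyp2j5 were lower, 3 of 59 members (5.08%), and 0 were higher by limma, where 6.58% of all genes were called (4.94% higher and 1.65% lower). At an unadjusted p below 0.05, 8 members were higher and 8 lower, and by the exact permutation test 6 and 8. Shares of all genes at these unadjusted thresholds were not computed, so the counts are not read as a result about P450s. The median difference was -0.11 over members and -0.04 over all genes, the latter moving to -0.129 with array medians set equal. That setting moved the split of all genes from 963 higher and 321 lower to 817 and 727, and left the members at 0 and 3. With quantile normalization repeated, 1 member was higher and 1 lower. Groups did not overlap for 0 members higher and 3 lower, 3 in all, against 4.13% and 1.96% of all genes, 6.1% in all; the 3 were Cyp2d12, Cyp2j5 and Cyp2d9, the last not called (-0.70, adjusted p = 0.357).

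Cyp2c37 was 15.15, 15.36, 15.38, 15.79 and 15.61 in WT and 14.76, 15.09, 13.13, 15.39 and 13.94 in KO. Its geometric mean signal was 1.99-fold lower in KO (adjusted p = 0.0475). Cyp2d12 was 14.64, 14.97, 14.65, 14.69 and 14.45 in WT and 13.94, 14.25, 13.36, 14.32 and 14.00 in KO, with a difference of -0.71 (adjusted p = 0.0279). Cyp2j5 was 17.07, 17.27, 17.11, 17.04 and 16.99 in WT and 16.75, 16.70, 16.84, 16.13 and 16.68 in KO, with a difference of -0.48 (adjusted p = 0.0412). The groups overlapped for Cyp2c37, and every KO array lay below every WT array for Cyp2d12 and Cyp2j5. All 3 calls lay near the threshold: leaving out single arrays ended that of Cyp2c37 for 18 arrays (adjusted p 0.0501 to 0.129), of Cyp2j5 for 10 (0.0501 to 0.103) and of Cyp2d12 for 6 (0.053 to 0.0802). Cyp2j5 was lower in KO at both ages. Cyp2a5 was 15.83 ± 0.31 in WT and 16.66 ± 0.49 in KO and was not called (0.83, adjusted p = 0.0659), and without the muscle-high arrays it was (0.83, adjusted p = 0.0264) while Cyp2c37 was not (0.0576). Leaving out 1 array of 8 weeks also brought in Cyp2c40 (WT replicate 1; 1.39, adjusted p = 0.0464), Cyp2d40 (KO replicate 4; -0.69, adjusted p = 0.0403) and Cyp2u1 (KO replicate 4; -0.97, adjusted p = 0.0319).

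Markers of other cells were higher in the arrays labelled KO at 8 weeks. Of the cholangiocyte markers 5 of 7 were higher (array means 7.87 to 10.35 against 6.04 to 6.98, 7 and 5 of the 7 above background). Of the stellate cell and fibroblast markers 6 of 10 were higher (9.14 to 10.49 against 7.65 to 8.55), and of the macrophage markers 5 of 10 (7.96 to 8.85 against 7.57 to 7.79). Of the hepatocyte markers 0 of 11 were called by limma, 0 also at an unadjusted p below 0.05, with array means of 18.89 to 18.99 and 18.92 to 18.98. Their part in the P450 result was not tested.

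The difference between KO and WT itself changed with age for 4 of 59 members (6.78%), 3 upward and 1 downward, where 3.05% of all genes did so (2.05% upward and 1.0% downward). Ogt was called lower in KO at 4 weeks and not at 8 weeks, so age and Ogt level cannot be told apart here either. Cyp2c69 went from -2.80 at 4 weeks to 0.40 at 8 weeks, an interaction of 3.19 (SE 0.42, adjusted p = 0.000236). Cyp2c40 went from -2.19 to 0.98 (3.17, SE 0.63, adjusted p = 0.00859), and Cyp2a22 from -1.34 to -0.01 (1.33, adjusted p = 0.0341). Cyp2u1 went the other way, from 1.63 to -0.73 (-2.36, adjusted p = 0.00276). In WT the first 3 fell and Cyp2u1 rose with age, and at 4 weeks the KO means of all 4 lay between the WT means of 4 and 8 weeks. The KO difference at 4 weeks and the age difference in WT both use the WT arrays of 4 weeks. Other members called in both comparisons did not all behave so. Cyp2g1 did, while the KO differences of Cyp2f2, Cyp2d22, Cyp2d40 and Cyp3a59 ran opposite to their age change in WT.

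For Cyp2c69 the 8-week arrays read 12.44, 12.02, 11.49, 11.09 and 11.35 in WT and 11.78, 12.65, 12.18, 11.58 and 12.18 in KO, and those of Cyp2u1 11.93, 12.80, 12.24, 12.30 and 12.34 and 11.65, 11.37, 11.75, 12.56 and 10.64. Both pairs of groups overlapped at 8 weeks. With signals above 16 set to 16 the interaction of Cyp2c40 was 2.30 (adjusted p = 0.0714). The call of Cyp2a22 ended without any 1 of 9 arrays (0.0503 to 0.0678) and without the muscle-high arrays (0.0855). Without WT replicate 2 of 4 weeks Cyp2b9 (adjusted p = 0.0297) and Cyp2b13 (adjusted p = 0.0326) passed as well, with no size given since the WT means of both at 8 weeks were not above background. Cyp2j5 passed without KO replicate 4 of 8 weeks (0.65, adjusted p = 0.0413), and without WT replicate 5 of 4 weeks Cyp2d9 (-2.22, adjusted p = 0.0193) and Cyp3a16 (2.22, adjusted p = 0.0232).

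**Figure D4:**
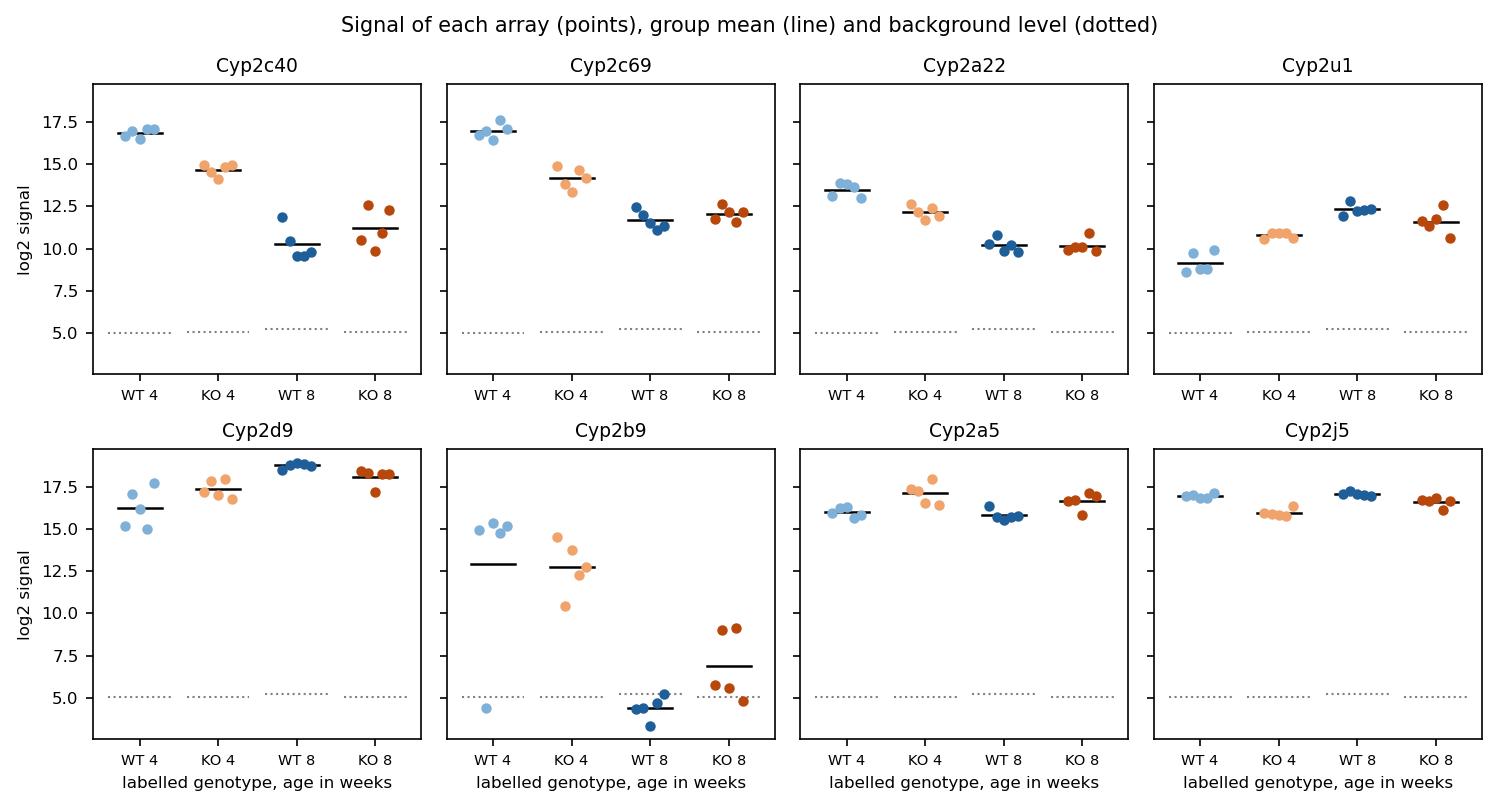
Log2 signal (vertical axis) of single arrays in the 4 groups (horizontal axis) for Cyp2c40, Cyp2c69, Cyp2a22, Cyp2u1, Cyp2d9, Cyp2b9, Cyp2a5 and Cyp2j5. Points are arrays, lines are group means and the dotted line is background; for Cyp2b9 the single low WT array of 4 weeks reads 4.40.

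Some of the genes known to control P450s were lower in KO at 4 weeks. Of 24 receptors and transcription factors measured 3 were lower and 0 higher (median -0.58). Nr1i3, which encodes CAR, was 9.87, 10.85, 10.20, 10.41 and 11.61 in WT and 9.30, 9.02, 8.81, 8.62 and 9.82 in KO. All KO arrays lay below all WT arrays, with a difference of -1.47 (adjusted p = 0.00575). Of the 5 Cyp2b genes 0 were called at 4 weeks by limma with all arrays (median -0.21), and 1 was lower at an unadjusted p below 0.05. A link between Nr1i3 and these genes was not tested. Rxra, the partner of CAR and PXR, was lower by 0.75 (adjusted p = 0.00484) and Nr3c1, the glucocorticoid receptor, by 0.61 (0.0174). Nr1i2, which encodes PXR, had an adjusted p of 0.997, and Ahr was not called (-0.57, adjusted p = 0.0555).

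Stat5b (-0.62, adjusted p = 0.131), Bcl6 (-0.41, adjusted p = 0.851), Cux2 (-0.60, adjusted p = 0.225) and Hnf4a (-0.28, adjusted p = 0.574) were not called at 4 weeks either. Of the 24, 1 was lower at 8 weeks, Cebpa (-0.77, adjusted p = 0.0349), and Nr1i3 was not called (-0.11, adjusted p = 0.91). The interaction was called for 0 of the 24 by limma, with 3 at an unadjusted p below 0.05, so that a change of the Nr1i3 difference with age was not shown (1.37, adjusted p = 0.13). With age 3 of 24 rose in WT, Foxa1 (1.48), Cebpa (1.19) and Hlf (1.07), and 6 rose in KO, among them Nr1i3 (1.21) and Rxra (0.54).

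Of 13 genes for redox partners and heme supply 2 were higher in KO at 4 weeks, the heme oxygenase gene Hmox1 (1.23, adjusted p = 0.0109) and the heme-binding Pgrmc1 (0.36, 0.0367). Without the muscle-high arrays 0 were higher and 1 lower. At 8 weeks 0 of 13 were called by limma, with 1 higher and 3 lower at an unadjusted p below 0.05. Of 11 other targets of the xenobiotic receptors 3 were higher in KO at 4 weeks: the quinone reductase gene Nqo1 (1.43, adjusted p = 0.000583), the glutathione transferase gene Gstm1 (0.71, 0.00134) and Aldh1a7 (0.86, 0.00746). Without the muscle-high arrays 2 of the 11 were higher at 4 weeks. At 8 weeks 3 were higher, Nqo1 (1.03), Gstm1 (0.50) and the transporter gene Abcc4 (0.57). Por was not analysed here.

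Some members had no call in any of the 5 comparisons with all arrays and the main settings. Cyp1a2, which clears caffeine, was 16.32 ± 0.72 and 16.12 ± 0.63 at 4 weeks and 16.80 ± 0.09 and 16.48 ± 0.38 at 8 weeks, in WT and KO. Cyp2r1, a vitamin D 25-hydroxylase gene, was 10.54 ± 0.28 and 10.09 ± 0.26, then 10.54 ± 0.18 and 10.22 ± 0.37. Cyp3a11 was 18.86 ± 0.23 and 19.05 ± 0.10 at 8 weeks. Besides the arrays named above, it was called at 4 weeks with trend and robust empirical Bayes (0.36, adjusted p = 0.0428) and with age in KO after repeated quantile normalization (-0.49, adjusted p = 0.00883). Cyp2a12 and Cyp2c50, the brightest of the Cyp2a and Cyp2c genes, had no call with the main settings either. Cyp2a12 fell with age after repeated quantile normalization, in WT (-0.44, adjusted p = 0.0289) and in KO (-0.47, adjusted p = 0.0137). It also fell in WT without WT replicate 1 of 4 weeks (adjusted p = 0.0489) and in KO without KO replicate 3 of 4 weeks (0.0295). A p above the threshold does not show that the levels of these members were the same.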

How the data were processed

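Liver RNA was labelled with the GeneChip WT Plus kit and hybridised to GeneChip Clariom S Mouse arrays, per the labels' protocols. The authors deposited log2 values made by RMA in Affymetrix Expression Console, per the submitters' processing notes; versions are not given in the sources used here, and the log2 base was inferred from the range of values (2.32 to 19.85). Of 22206 features, 2634 had no single symbol and were left out. Where several features shared a symbol (55 symbols), only that with the highest mean entered, so 67 features dropped out and 19505 genes were tested. Array medians ran from 5.42 to 5.58, and replicates of a group correlated at 0.974 to 0.993; the number of arrays limits the precision.

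A model of 4 group means over 20 arrays (16 residual degrees of freedom) was estimated by limma (version 3.58.1, under R 4.3.3), and p-values were adjusted over all genes by the Benjamini-Hochberg method. It was tested on simulated data. Exact permutation tests of 5 against 5 arrays are 2-sided and cannot go below 0.00794. P-values measure the spread between these arrays. The members and all gene lists were chosen with earlier results of these data known. Named were the brightest member of each subfamily, up to 8 called members per direction and comparison, up to 3 called genes per list, and Ogt, Nr1i3, Nr1i2 and Ahr (the rule also held Por, which was not analysed here); other members are named where a count or a subfamily is spelled out, chosen after their values were seen. The 29 alternatives cover scaling, filtering, a ceiling, the replicate block and arrays left out.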

Additional observations from a re-analysis of the deposited data

Results flagged for a closer look

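Of 186 groups of 5 arrays tested for an outlying array (members above background), 13 were past Dixon's critical value of 0.71, and chance gives about 5% of groups. In WT at 4 weeks, Cyp2b9 was 4.40 on replicate 2 (14.75 to 15.37 on the others) and Cyp2c65 was 7.68 on replicate 4 (6.89 to 7.02). In KO at 4 weeks, Cyp3a16 was 11.18 on replicate 1 (9.05 to 9.60), Cyp2g1 was 5.78 on replicate 1 (6.52 to 6.80) and Cyp2d40 was 11.26 on replicate 2 (11.68 to 11.82).

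In WT at 8 weeks, Cyp2d13 was 17.56 on replicate 1 (17.91 to 18.05), Cyp3a13 was 15.12 on replicate 1 (14.00 to 14.24) and Cyp2d34 was 7.82 on replicate 4 (7.12 to 7.16). In the arrays labelled KO at 8 weeks, Cyp2d9 was 17.18 on replicate 3 (18.25 to 18.44) and Cyp2d13 was 16.76 on the same array (17.41 to 17.60). Cyp2a22 was 10.93 on replicate 4 (9.85 to 10.11), Cyp2j5 was 16.13 on the same array (16.68 to 16.84), and Cyp2c65 was 8.17 on replicate 5 (6.66 to 6.94).

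The KO difference changed between the ages, by the interaction test in limma, for Cyp2c69 (3.19, adjusted p = 0.000236), Cyp2c40 (3.17, adjusted p = 0.00859), Cyp2a22 (1.33, adjusted p = 0.0341) and Cyp2u1 (-2.36, adjusted p = 0.00276).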

How the results depend on the processing

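Of the named results called with the main settings, none reversed direction under the alternatives run, 29 at most. Named results not called there were not checked for a reversal, and a difference that vanished under an alternative was counted as weaker. The interaction had 28 alternatives, without the fit on the compared groups alone, and the filter on dim genes dropped some named genes. With signals above 16 set to 16, 8 members (2 higher and 6 lower) were called at 4 weeks in place of 15, and 1 at 8 weeks in place of 3. That setting compresses differences of signals above 16, while Cyp2c37 at 8 weeks, with every array below 16, kept its difference and moved only in adjusted p, from 0.0475 to 0.0552. Leaving out single arrays gave 12 to 16 called members between KO and WT at 4 weeks, 0 to 4 at 8 weeks, 3 to 6 for the interaction, 23 to 27 with age in WT and 21 to 26 with age in KO. At 8 weeks the count was 0 without KO replicate 1 or 5 or WT replicate 2, 3 or 4, and 1 without KO replicate 2 or WT replicate 1 of 4 weeks. Over all genes the same omissions gave 1483 to 2088, 968 to 1434, 385 to 747 (385 without KO replicate 1 of 8 weeks), 1293 to 1872 and 2217 to 2916. The cause was not tested.

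The labels do not state that replicate numbers pair the samples. Deviations of same-numbered arrays correlated at -0.146 to 0.479 between WT and KO at 4 weeks, where 2 of 5 arrays matched best with their own number. At 8 weeks they correlated at -0.176 to 0.14, where 1 of 5 did. The value of 0.479 was between WT and KO replicate 4, both high in skeletal muscle transcripts. Such correlations cannot exclude a pairing. With the replicate block, KO minus WT was positive for 3 called members and negative for 10 at 4 weeks, for 0 and 2 at 8 weeks, 3 and 1 for the interaction, 9 and 16 with age in WT and 11 and 15 with age in KO. With it, 818 of all genes were higher and 986 lower at 4 weeks, and 912 and 258 at 8 weeks.

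Signals near background, which held 11 members in all groups, and above 16 limit what sizes of difference these arrays can show, and close paralogs may share signal.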
